A study of Mus musculus with 2 samples.

Results

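The Gpr-named genes are the mouse genes whose symbol begins with Gpr and a number, the provisional name given to predicted G protein-coupled receptors before a ligand is known. All protein-coding genes with such a symbol in the GENCODE M21 annotation were taken, which gave 73 of 21911 protein-coding genes. Their chromatin was examined by ATAC-seq, in which a transposase cuts accessible DNA, in neutrophils from the peripheral blood of C57BL/6J mice at the adult stage, aged 5 to 6 weeks, with sex not collected. One group of 2 libraries was made, each from 50000 cells, with fragments of 151 to 347 in the library of replicate 1 and 151 to 379 in that of replicate 2 in the size range of the labels. The labels name no treatment, no genetic change and no purification step. The libraries have separate biosample records under the same donor record, which does not state whether they came from different mice, so the spread between them may be technical. With 1 group there is no comparison between conditions, and every value below is a description.

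G protein-coupled receptors cross the plasma membrane 7 times and pass a signal from an outside ligand to heterotrimeric G proteins. Neutrophils steer by such receptors, which read chemokines, formyl peptides, leukotrienes, complement fragments and metabolites. The Gpr numbers hold receptors of very different use: sensors of protons and lipids in leukocytes, receptors of neurons and endocrine cells, and multi-pass proteins of the Golgi and lysosome that received the name from their sequence alone. Promoters of genes used in most cell types often lie in CpG islands and are open in most cells, while promoters of receptors restricted to a few cell types are often poor in CpG.

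A peak list of each replicate that passed the irreproducible discovery rate (IDR) test, which keeps peaks that rank alike in repeated calls, held 27709 merged regions in replicate 1 and 14548 in replicate 2. A conservative list that passed an IDR of 0.05 between the replicates held 24882. A promoter was called open where such a region overlapped the 1 kb on either side of any annotated start site of the gene. Markers of neutrophils had an open promoter in 9 of 10 genes in replicate 1 and 2 of 10 in both replicates (Mmp8 and S100a9), and Ly6g had none. Markers of B cells had one in 8 of 8 genes in replicate 1 and in 5 of 8 in both (Pax5, Ms4a1, Cd79a, Ebf1 and Blnk). The T cell markers gave 3 of 7 and 1 of 7 (Cd3d), those of monocytes and macrophages 1 of 8 and 0 of 8, and those of eosinophils 1 of 6 and 0 of 6. Over all protein-coding genes the shares were 47.1% in replicate 1 and 39.8% in both replicates. The neutrophil and B cell lists were above the first share, and only the B cell list was above the second. In bulk chromatin, an open region in a part of the cells and a weaker opening in all of them cannot be told apart.

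Few Gpr promoters were open. In both replicates, 13 of the 73 genes had an open promoter (17.8%, 95% Wilson interval 10.7 to 28.1%), against 39.8% of all protein-coding genes. In replicate 1 there were 23 (31.5%, against 47.1% of all genes), in replicate 2 there were 13 (17.8%, against 40.3%), and in the conservative list there were 22 (30.1%, against 46.7%). The mean over the replicates was 24.7% ± 9.69 (SD, n = 2) for Gpr genes and 43.7% ± 4.81 for all genes. An open promoter in at least 1 of these 3 lists was found for 24 Gpr genes, against 48.6% of all genes, and 49 had none. All 13 genes open in replicate 2 were also open in replicate 1, and 10 more (13.7%) were open in replicate 1 only, against 7.33% of all genes.

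The Golgi, lysosome and endosome proteins held 8 of the 13 promoters open in both replicates. All 8 were open (Wilson interval 67.6 to 100%), while the other 65 Gpr genes had 5 open (7.69%, interval 3.33 to 16.8%). These 65 genes had 15 open promoters in replicate 1 and 14 in the conservative list, so there the 8 were the smaller part. CpG content differed along the same line. A start was called CpG-rich where the 500 bp on either side of the most upstream start site held 50% GC or more and CpG at 0.6 times or more of the number its base content predicts. By this rule, 20 of the 73 Gpr genes (27.4%) were CpG-rich, against 44.4% of all genes, and 6 of the 8 intracellular proteins were among them. Of the 20 CpG-rich Gpr genes, 8 were open in both replicates (40%, interval 21.9 to 61.3%), against 66.8% of all CpG-rich genes. Of the 53 CpG-poor ones, 5 were open (9.43%, interval 4.1 to 20.3%), against 18.2% of all CpG-poor genes. The class describes the most upstream start, while a gene counts as open at any start. In the conservative list, the strongest summits of Gpr35, Gpr132, Gpr108 and Gpr19 lay 21.4, 7.23, 0.673 and 0.614 kb downstream of that start. CpG content around these summits was not measured. Outside the Golgi, lysosome and endosome group, 2 of 14 CpG-rich genes (14.3%, interval 4.01 to 39.9%) and 3 of 51 CpG-poor genes (5.88%, interval 2.02 to 15.9%) were open in both. Taking out a group in which all 8 genes were open lowers the shares of the rest. These shares were therefore not set against those of all genes.

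**Figure D1:**
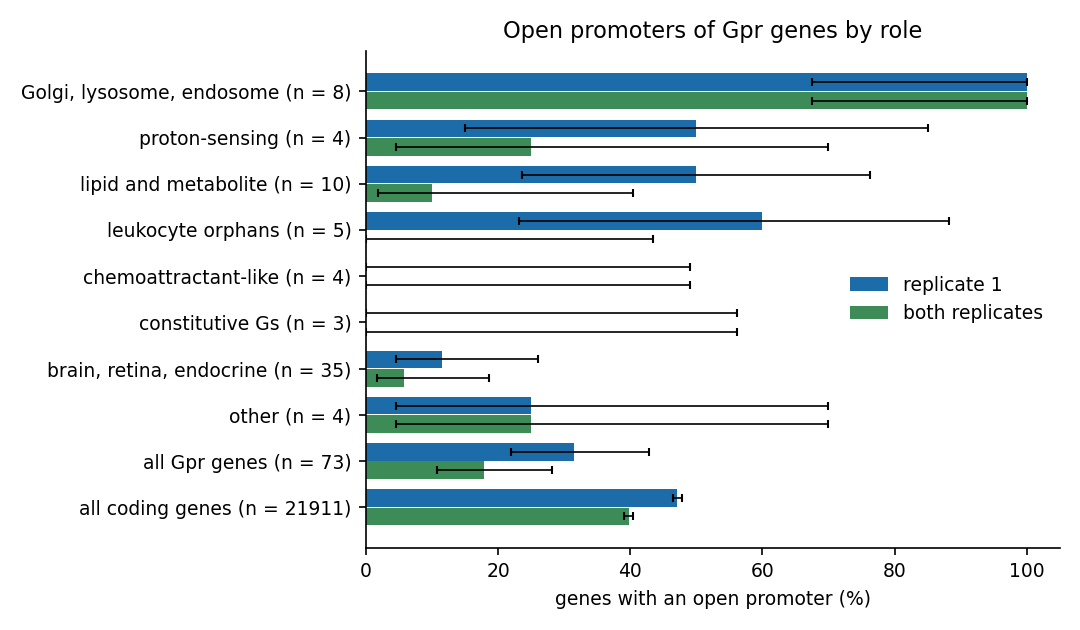
Share of genes with an open promoter (x axis, percent) for Gpr genes by role and for all protein-coding genes, in replicate 1 (blue) and in both replicates (green); whiskers are 95% Wilson intervals, and n is the number of genes. The 8 Golgi, lysosome and endosome genes reach 100% in both bars, and the bars of the chemoattractant-like and constitutive Gs receptors are at 0.

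**Figure D2:**
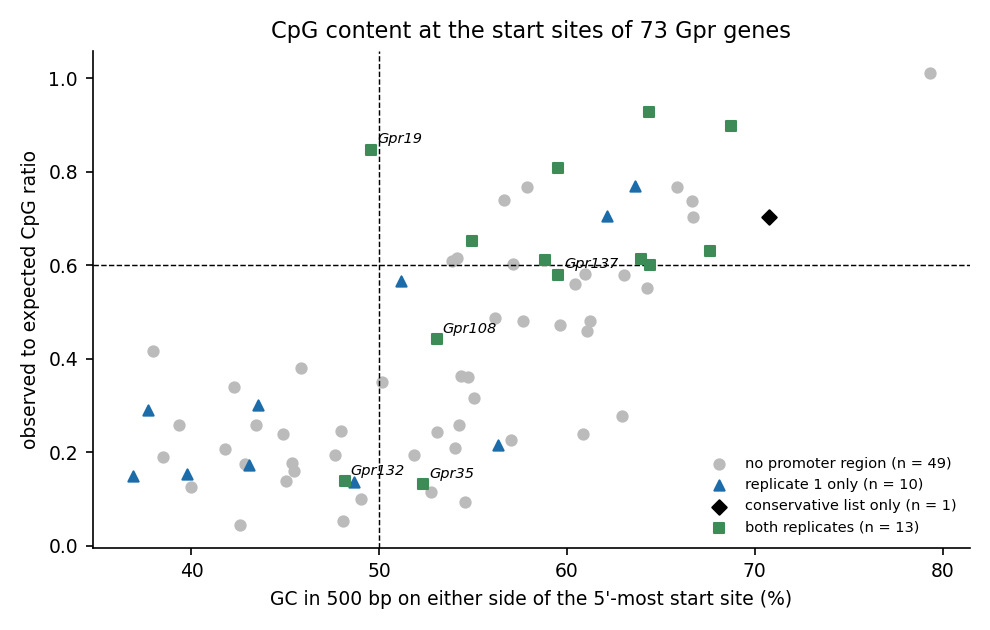
GC content (x axis, percent) and observed to expected CpG ratio (y axis) around the most upstream start site of each of the 73 Gpr genes, by promoter status; dashed lines mark the thresholds of 50% and 0.6 that define a CpG-rich start. Of the 13 genes open in both replicates, 8 lie in the upper right field, and the other 5 are labelled.

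The strongest promoters of the set belonged to these intracellular proteins. Signal values, the authors' own score of peak strength, are given for replicate 1, replicate 2 and the conservative list in that order, and are ranked only within a list. Gpr137c, a lysosomal membrane protein of the Gpr137 family, had 14.5, 18.8 and 16.7. Gpr89, which counteracts alkaline pH in the Golgi as an anion channel, had 15.7, 15.1 and 18.5. Gpr107, a Golgi and endosome protein needed for the entry of some toxins, had 15.8, 14.9 and 17.8. These values lay between percentiles 64.3 and 89.2 of all coding promoter regions of their replicate, so the top of the Gpr set was in the upper part of the genome-wide range and not at its end.

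The other 5 intracellular proteins were in the middle or lower part of that range. Gpr180, of the same protein family as Gpr107 and Gpr108, had 12.5, 12.6 and 13.4, and its summit lay 99 bp upstream of the single start site in all 3 lists. Gpr155, a lysosomal cholesterol sensor that acts on mTORC1, had 11.5, 12.5 and 13.4. Gpr108, a Golgi paralog of Gpr107, had 9.44, 11.6 and 10.4 at an internal start site, and a weaker region at its most upstream start (7.34, 6.85 and 7.46) that is also in the promoter of Trip10. Gpr137 had 8.93, 9.84 and 9.65, with the replicate values from different start sites of the gene. Gpr137b had 9.33, 6.55 and 9.14, and its replicate 2 value was the lowest of the 13 genes, at percentile 2.91 of coding promoter regions. This group therefore ran from near the bottom to the upper part of the range.

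Some of these regions are shared with a neighbour, so that the signal cannot be assigned to 1 gene. In the conservative list the strongest regions of Gpr89, Gpr137 and Gpr137c also overlap the promoters of Gja5, Bad and Txndc16, and the summit at Gpr137c lies 69 bp from the start of Txndc16 and 223 bp upstream of Gpr137c. Sharing of this kind held for 3 of the 13 Gpr genes (23.1%) and for 26.5% of all genes open in both replicates. The summit lay within 100 bp of one of the gene's own start sites for 9 of the 13 (69.2%), against 68.7% of all open genes. In both measures the open Gpr promoters were near the genome-wide share.

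The stretches below are printed because they carry the most motif matches among the 5 Gpr promoters with the highest mean signal value. Those of Gpr89 and Gpr107 held no match but were only 118 and 24 bases long, against 165 to 200 for those printed. In the 300 bp around their summits, both Gpr89 and Gpr107 held CCAAT. The printed stretches come from the RefSeq GRCm38.p6 genome, run 5′ to 3′ on the strand of the gene, end at the base before its start site, and leave out annotated exons. That of Gpr137c therefore leaves out the summit, which lies 223 bp upstream of the start in an untranslated exon of Txndc16. Its TGTGGT match is outside the 300 bp around that summit. Capitals mark matches on either strand to GGGCGG (bound by SP and KLF factors), CCAAT (bound by NFY) and TGTGGT (bound by RUNX factors), and they overlap none of each other except where 2 copies of GGGCGG share bases in Gpr180. Gpr137c is at chr14:45219552-45219716 on the plus strand, Gpr180 at chr14:118136958-118137157 on the plus strand and Gpr157 at chr4:150087165-150087364 on the plus strand.
Gpr137c: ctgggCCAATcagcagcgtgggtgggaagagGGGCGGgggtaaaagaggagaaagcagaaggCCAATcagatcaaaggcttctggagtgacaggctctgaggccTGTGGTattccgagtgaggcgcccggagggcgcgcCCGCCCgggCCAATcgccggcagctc
Gpr180: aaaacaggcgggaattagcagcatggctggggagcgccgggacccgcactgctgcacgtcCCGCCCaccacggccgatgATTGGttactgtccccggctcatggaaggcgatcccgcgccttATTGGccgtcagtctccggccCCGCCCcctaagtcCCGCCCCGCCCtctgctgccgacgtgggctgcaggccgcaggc
Gpr157: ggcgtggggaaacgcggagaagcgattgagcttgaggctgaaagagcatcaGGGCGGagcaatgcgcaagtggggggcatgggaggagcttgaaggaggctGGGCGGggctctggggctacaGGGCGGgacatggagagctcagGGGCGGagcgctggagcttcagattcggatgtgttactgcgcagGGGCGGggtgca

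Gpr137c holds 3 copies of CCAAT and 2 of GGGCGG, Gpr180 holds 2 and 4, and Gpr157 holds 5 copies of GGGCGG and no CCAAT. In the 300 bp around each summit, GGGCGG was found in 6 of the 13 open Gpr promoters (46.2%), against 63.2% of all 10900 coding promoter regions of the conservative list. CCAAT was found in 6 (46.2%), against 39%. A match says only that the letters are there.

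The 4 proton-sensing receptors, among them Gpr4, Gpr65 and Gpr132, couple a fall in outside pH to G proteins, and Gpr132, known from macrophages and lymphocytes, also responds to oxidised and lysophospholipid-related lipids. Gpr132 was the 1 gene of the 4 open in both replicates, with 9.77, 9.94 and 10.5. This region lay at an internal start site, 46 bp upstream of it and 7.23 kb downstream of the most upstream start. Near the most upstream start, regions of 5.87 and 3.98 were in the list of replicate 1 and none in that of replicate 2. Gpr65 (TDAG8), a receptor of lymphocytes and myeloid cells, had a promoter region of 6.17 in replicate 1 only, with its summit 1.51 kb inside the gene, so that it counts below as a distal region too. In the conservative list its region of 6.27 was at the start site itself. Gpr4, known from endothelium, had no promoter region in the 3 lists.

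Of the 10 lipid, metabolite and nucleotide-like receptors, Gpr35 was open in both replicates and 4 others in replicate 1 only. Gpr35 binds kynurenic acid and a serotonin metabolite and is known to act in neutrophil recruitment. Its strongest region had 14, 10.3 and 13.5, at percentiles 70.9 and 25.5 in the 2 replicates. This region lay in an intron of Gpr35, 21.4 kb downstream of the most upstream start and 901 bp upstream of the nearest internal one, where a second region had 9.45, 7.35 and 9.65. The start site regions of Gpr35 and Gpr132 were both inside the genes, and neither gene counted as open when the most upstream start alone was used.

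The internal regions of Gpr35 and Gpr132 are printed because these were the 2 ligand-sensing leukocyte receptors open in both replicates, and they were chosen after their values were seen. Each is 200 bases on the strand of the gene around the summit, in an intron, from the same genome. Capitals mark TTGCNNAA (bound by CEBP factors), GAGGAAGT (PU.1-like), TGTGGT (RUNX) and GGAAGT (ETS, also the end of the PU.1-like letters), on either strand. Gpr35 is at chr1:92972121-92972320 on the plus strand and Gpr132 at chr12:112860953-112861152 on the minus strand.
Gpr35: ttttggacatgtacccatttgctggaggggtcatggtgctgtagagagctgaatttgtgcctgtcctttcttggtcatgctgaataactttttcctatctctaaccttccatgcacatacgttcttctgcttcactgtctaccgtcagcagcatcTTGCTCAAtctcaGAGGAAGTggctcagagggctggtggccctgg
Gpr132: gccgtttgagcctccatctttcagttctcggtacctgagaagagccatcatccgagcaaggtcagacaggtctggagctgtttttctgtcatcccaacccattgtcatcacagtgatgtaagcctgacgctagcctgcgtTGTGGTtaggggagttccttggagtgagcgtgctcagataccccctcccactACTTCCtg

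In the Gpr35 region the CEBP and PU.1-like letters stand 5 bases apart. In the 300 bp windows of the 13 open promoters, GAGGAAGT was found in 3 (Gpr35, Gpr137 and Gpr137c; 23.1%, against 4.6% of all coding promoter regions) and TTGCNNAA in 2 (Gpr35 and Gpr108; 15.4%, against 8.82%). GGAAGT was found in 7 (53.8%, against 33.1%) and TGTGGT in 3 (23.1%, against 13.8%). With 13 regions, 1 region more or less moves each share by several percent.

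The 4 lipid receptors open in replicate 1 only are known from lymphocytes, macrophages or microglia. Gpr18, a receptor of lymphocytes, had 8.41 at 49 bp upstream of its start. Gpr55, which responds to lysophosphatidylinositol, had 7.68. Gpr183 (EBI2), the oxysterol receptor that places B cells in follicles, had 7.06, and Gpr34, a lysophosphatidylserine receptor of microglia and mast cells, had 6.72. These 4 values lay between percentiles 13.2 and 26.9 of coding promoter regions in replicate 1. Gpr18 lies in an intron of Ubac2 and Gpr34 in one of Cask. The conservative list also held Gpr18 (7.91) and Gpr183 (7.47), and did not hold Gpr34 or Gpr55. The part of B cell chromatin in these regions was not tested, and the promoters of all 8 B cell markers were open in the same library, and the 5 open in both replicates had 8.12 (Blnk) to 13 (Ms4a1) there. Gpr84, the receptor of medium-chain fatty acids on activated myeloid cells, had no promoter region in the 3 lists, nor did Gpr174, Gpr17, Gpr31b and Gpr119.

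Among the 5 orphan receptors known from leukocytes or platelets, 3 were open in replicate 1 and none in both replicates. Gpr160 had 9.48 and the only CpG-rich start of the group, with a region of 983 bp. Gpr171, known from T cells, had 8.32 at 29 bp upstream of its start in an intron of Med12l. Gpr146 had 6.31 at 36 bp upstream of an internal start. All 3 were in the conservative list, at 9.74, 9.44 and 6.57. Gpr141, a receptor named from myeloid cells, and Gpr82, which lies beside Gpr34 in Cask, had no promoter region. None of the 4 chemoattractant-like receptors had one in the 3 lists: Gpr1 (a chemerin receptor), Gpr15 (a gut-homing receptor of T cells), Gpr25 and Gpr33. The same held for Gpr3, Gpr6 and Gpr12, which signal through Gs without a ligand.

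The 35 receptors known from brain, retina or endocrine cells formed the largest group, and 30 of them had no promoter region in the 3 lists. Gpr176, a receptor of the circadian clock neurons, was open in both replicates with 12.3, 12.3 and 14, and its summit was 716 bp upstream of the start site. Gpr19 had 9.51, 10.4 and 10.7, with the summit 39 bp upstream of one of its 11 start sites and 3 bp from that of the noncoding gene 2810454H06Rik, so these cannot be told apart. Gpr135 had 10.9 in replicate 1 only, and Gpr153 had 6.02 in the conservative list only. The summits of both lay in coding exons, 621 and 1004 bp downstream of the nearest start. The 30 without a region included Gpr37 and Gpr37l1 (glia), Gpr143 (pigment cells), Gpr158 and Gpr179 (neurons and retina) and Gpr161 (primary cilium). Of the 4 receptors outside these groups, Gpr157 had 12, 13 and 13.6, and Gpr20 and Gpr182 had no promoter region.

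**Figure D3:**
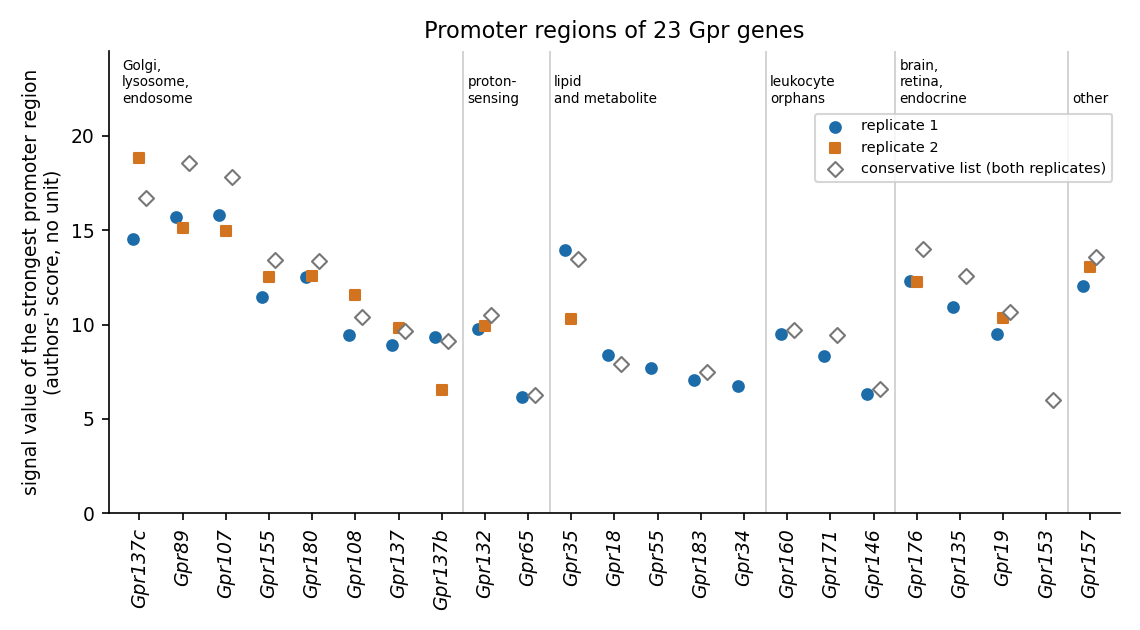
Signal value of the strongest promoter region (y axis, the authors' score, no unit) for 23 of the 24 Gpr genes with a promoter region in replicate 1 (circles), replicate 2 (squares) or the conservative list (diamonds), grouped by role. A gene with no square has no promoter region in the IDR list of replicate 2, and the 10 genes of that kind lie at 12.6 or below in the other lists.

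Genes open in replicate 1 only had weaker regions than those open in both. The median in replicate 1 was 7.54 (range 6.17 to 10.9, 10 genes) against 12 (range 8.93 to 15.8, 13 genes), and over all protein-coding genes it was 8.08 against 13.3. The ranges of the 2 Gpr classes overlapped: Gpr160 at 9.48 and Gpr135 at 10.9 were above Gpr137, the lowest gene open in both. The call depends on the IDR list of replicate 2. In a less strict list of that replicate, all 10 genes except Gpr34 had a promoter region, from 4.54 (Gpr55) to 10.3 (Gpr135). In replicate 2 the 13 genes had a median of 12.3, against 14 for all genes open in both. Genes open in both had a median of 6 annotated start sites, and those open in replicate 1 only or with no region had 1 (5, 4 and 2 over all genes). With the most upstream start alone, 11 of the 13 were still open.

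The IDR threshold decided a few genes. Gpr153 was just inside it in the comparison of the replicates, with an IDR of 0.0301. Gpr142, an islet receptor, was just outside with 0.0665 and a signal of 5.71, and Gpr55 followed with 0.151. Gpr3, Gpr25, Gpr85 and Gpr139 were also in that ranked list, all at 0.409 and with signal values from 3.31 to 4.14. Of the 49 genes called closed, 44 thus had no promoter region even in the unthresholded ranking. The same share over all protein-coding genes is not given here, so this count describes the Gpr genes alone.

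Distal regions gave a different picture from promoters. A region was called distal where its summit was over 1 kb from every annotated start site, and it was counted for a gene within 50 kb of the most upstream start site. In both replicates, 25 of the 73 Gpr genes had a distal region (34.2%, Wilson interval 24.4 to 45.7%), against 27.7% of all protein-coding genes. In replicate 1 there were 43 (58.9%, against 51.3%), in replicate 2 there were 25 (34.2%, against 27.8%), and in the conservative list there were 41 (56.2%, against 47.6%). The mean per gene was 1.68 in replicate 1 and 0.534 in replicate 2, or 1.11 ± 0.814 (SD, n = 2), against 1.17, 0.433 and 0.801 ± 0.521 over all genes. At least 3 distal regions in replicate 1 were found for 21 Gpr genes (28.8%), against 17% of all genes. The Gpr shares were above those of all genes in each list, by less than the difference between the replicates.

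The higher share lay with CpG-poor genes. A distal region in both replicates was found for 22 of 53 CpG-poor Gpr genes (41.5%, interval 29.3 to 54.9%), against 23.6% of all CpG-poor genes. It was found for 3 of 20 CpG-rich ones (15%, interval 5.24 to 36%), against 32.7% of all CpG-rich genes. By role, the leukocyte orphans had the highest mean number per gene, 4.4 in replicate 1 and 2.2 in replicate 2. Without Gpr146 the other 4 had 3 and 1.75, in replicate 1 below other groups. The 4 genes outside the named roles had 3.5 and 0.75. The proton-sensing receptors had 3.25 and 0.75, the lipid and metabolite receptors 2.6 and 0.7, the Golgi, lysosome and endosome proteins 1.38 and 0.5, and the brain, retina and endocrine receptors 0.857 and 0.257. The intracellular proteins, first by promoter share, were not first by distal count.

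A closed promoter with a distal region in both replicates was found for 17 Gpr genes (23.3%, interval 15.1 to 34.2%), against 8.68% of all genes. Part of this gap is the larger share of closed promoters among Gpr genes. Counted among closed genes alone, it was 17 of 49 Gpr genes and 1901 of 11268 protein-coding genes. The 17 included Gpr4 (proton-sensing), Gpr17, Gpr84 and Gpr174 (lipid and nucleotide-like), Gpr1, Gpr141, Gpr3 and Gpr20, and Gpr61, Gpr62, Gpr83, Gpr152, Gpr162, Gpr173 and Gpr179 of the brain, retina and endocrine group. A distal region near a gene need not act on it. Of the 118 different regions counted in replicate 1, the Gpr gene was the nearest coding gene for 45. By summit, 70 were in introns, 37 between genes and 11 in exons, and 39 (33.1%) were also open in replicate 2, against 35% of all distal regions. Of the 39 regions in replicate 2, 38 were open in replicate 1 (97.4%, against 98.2% of all).

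**Figure D4:**
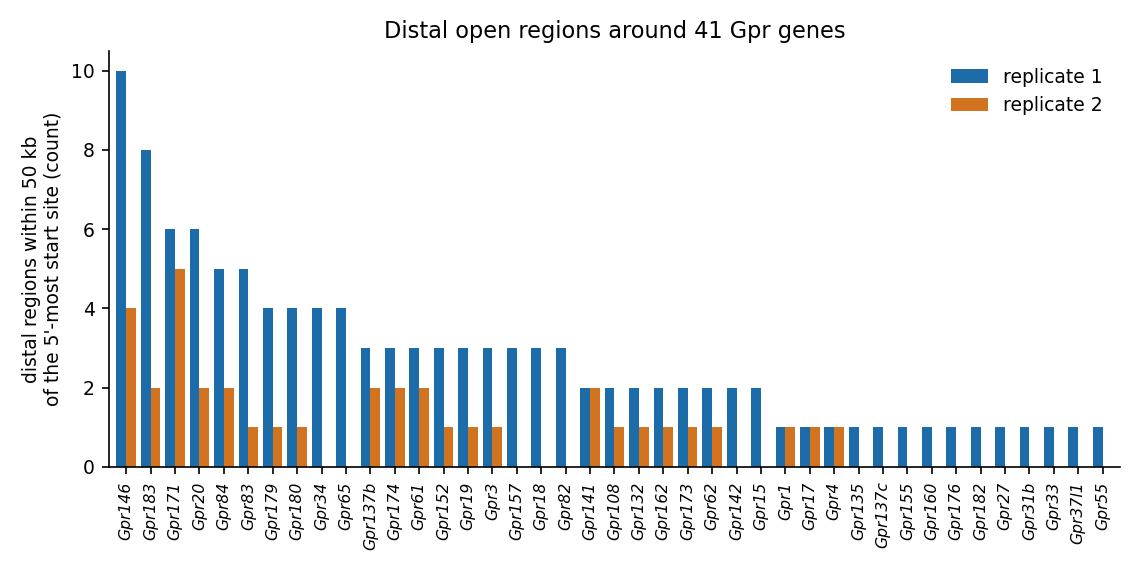
Number of distal open regions within 50 kb of the most upstream start site (y axis) in replicate 1 (blue) and replicate 2 (orange) for 41 of the 43 Gpr genes with at least 1 in replicate 1; another 30 genes have none in replicate 1. Gpr146 has the most in replicate 1 with 10, and Gpr171 the most in replicate 2 with 5.

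Gpr174, a lysophosphatidylserine receptor of B and T cells, had the strongest distal region of the set in replicate 1, while in replicate 2 Gpr137b had the strongest (17.5). It lay 5.26 kb upstream of the start, between genes, with 25.3 in replicate 1 (percentile 99.9 of all distal regions) and 13.7 in replicate 2 (percentile 83.2). A second region 21 kb upstream had 14.6 and 11.1. Gpr174 was the nearest coding gene to both. As for Gpr183, the part of B cell chromatin was not tested, and distal regions did not set the B cell and neutrophil marker lists apart. The B cell markers had one in 8 of 8 genes in replicate 1 and in 4 of 8 in both. The neutrophil markers had one in 10 of 10 and 5 of 10, against 51.3 and 27.7% of all genes. Markers of other cells had them too: of the eosinophil markers, Prg2 had 5 and 3 in the replicates and Siglecf 4 and 3, while Epx had none.

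Gpr141 had 2 distal regions, both open in both replicates. One lay 4.05 kb upstream of the start (17.3 and 13.6) and one in an intron of the gene 29.6 kb downstream (18.2 and 12.6). In replicate 1 they were at percentiles 96.2 and 97.3 of distal regions, and Gpr141 was the nearest coding gene to each. Gpr84 had 5 regions in replicate 1 and 2 of them in replicate 2. Those 2 lay past the 3′ end of Gpr84, 5.24 kb (12 and 9.32) and 3.29 kb (7.65 and 9.24) downstream of its start, in an intron of the gene model Gm49482. The other 3 were 32 to 42.5 kb upstream, nearer to Zfp385a or Itga5, and were in the list of replicate 1 but not in that of replicate 2. The conservative list held those 36.8 and 42.5 kb upstream (12.6 and 9.18). It also held a region 3.05 kb upstream of Gpr84 (6.24), to which Gpr84 was the nearest coding gene.

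The next stretches are printed because these 3 leukocyte receptors have no promoter region in the 3 lists but have distal regions nearby in both replicates. The stretches were chosen after their values were seen, and whether the regions act on these genes was not tested. Each is 200 bases around the summit on the strand of the gene, in an intron or between genes, from the same genome. Capitals mark GAGGAAGT (PU.1-like), TTGCNNAA (CEBP), CCAAT (NFY) and GGAAGT (ETS, also the end of the PU.1-like letters), on either strand. Gpr174 is at chrX:107250522-107250721 on the plus strand, Gpr141 at chr13:19794576-19794775 on the minus strand and Gpr84 at chr15:103305275-103305474 on the minus strand.
Gpr174: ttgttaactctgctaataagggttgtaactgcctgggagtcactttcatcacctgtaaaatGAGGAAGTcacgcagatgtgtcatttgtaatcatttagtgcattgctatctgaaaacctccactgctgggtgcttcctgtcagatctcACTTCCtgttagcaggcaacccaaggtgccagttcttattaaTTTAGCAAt
Gpr141: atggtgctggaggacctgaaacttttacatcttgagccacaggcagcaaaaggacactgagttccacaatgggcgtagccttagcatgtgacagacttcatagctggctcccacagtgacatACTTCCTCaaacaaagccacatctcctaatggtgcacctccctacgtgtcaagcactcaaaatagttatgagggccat
Gpr84: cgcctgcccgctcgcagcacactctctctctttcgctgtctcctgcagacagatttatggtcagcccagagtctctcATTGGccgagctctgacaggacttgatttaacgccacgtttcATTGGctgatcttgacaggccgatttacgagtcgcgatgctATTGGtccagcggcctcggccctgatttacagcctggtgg

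The Gpr174 stretch holds a PU.1-like match, a further ETS match and a CEBP match, the Gpr141 stretch 1 PU.1-like match, and the Gpr84 stretch 3 CCAAT matches, all on its opposite strand, and none of the others. Over all 98 distal regions of Gpr genes in the conservative list, these motifs were found at shares below or within 1 percentage point of those in the 13238 distal regions of that list. GGAAGT was in 37.8% against 40.8%, TTGCNNAA in 11.2% against 16%, GAGGAAGT in 7.14% against 12.3%, and TGTGGT in 30.6% against 30.2%. CCAAT was in 29.6% against 29.9%.

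Gpr146 had the most distal regions, 10 in replicate 1 and 4 in replicate 2, all within 50 kb and most in introns of 3110082I17Rik. The strongest lay 20.9 kb downstream of the most upstream start (11.3 and 10.3), and C130050O18Rik was the nearest coding gene to it. Gpr183 had 8 and 2, from 20.5 to 48.5 kb upstream in introns of Ubac2 for 6 of them. Of these, the regions 44.5 kb (9.36 and 8.52) and 48.5 kb (6.75 and 9.85) upstream were open in both replicates. Gpr18 lies 49.4 kb from Gpr183, and 2 of its 3 distal regions are counted for both genes.

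Gpr171 had 6 and 5, the highest number in replicate 2. They lay in Med12l introns on both sides of the gene. The regions 18.3 and 18.9 kb upstream had 12.4 and 12.1 in replicate 1 and 8.17 and 11.4 in replicate 2, and those 20.7 and 46.8 kb downstream had 13.5 and 12.8, and 9.4 and 10.1. Those upstream were nearest to P2ry14, the UDP-glucose receptor. Gpr65 had 4 and 0, the strongest 12.1 kb downstream (13.1), and the promoter region named above is among the 4. The Cask intron held a region of 17.9 in replicate 1, at percentile 97 and 38.4 kb downstream of Gpr34, which is counted for Gpr34 and Gpr82 and was not in the list of replicate 2.

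Further Gpr genes had at least 3 in replicate 1. Gpr20 (6 and 2) lay near Ptp4a3, which was nearest to 5 of the 6. Gpr83 (5 and 1), known from brain and regulatory T cells, had a region 24.7 kb upstream with 18.2 and 16.7, in an untranslated exon of Mre11a. Gpr137b had 3 and 2, of which a region in its own intron 15.4 kb downstream had 17.4 and 17.5, above its promoter value in both replicates. The others included Gpr179 and Gpr180 with 4 and 1 each, Gpr61 with 3 and 2, Gpr3, Gpr19 and Gpr152 with 3 and 1 each, and Gpr82, Gpr157 and Gpr18 with 3 and 0 each.

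**Figure D5:**
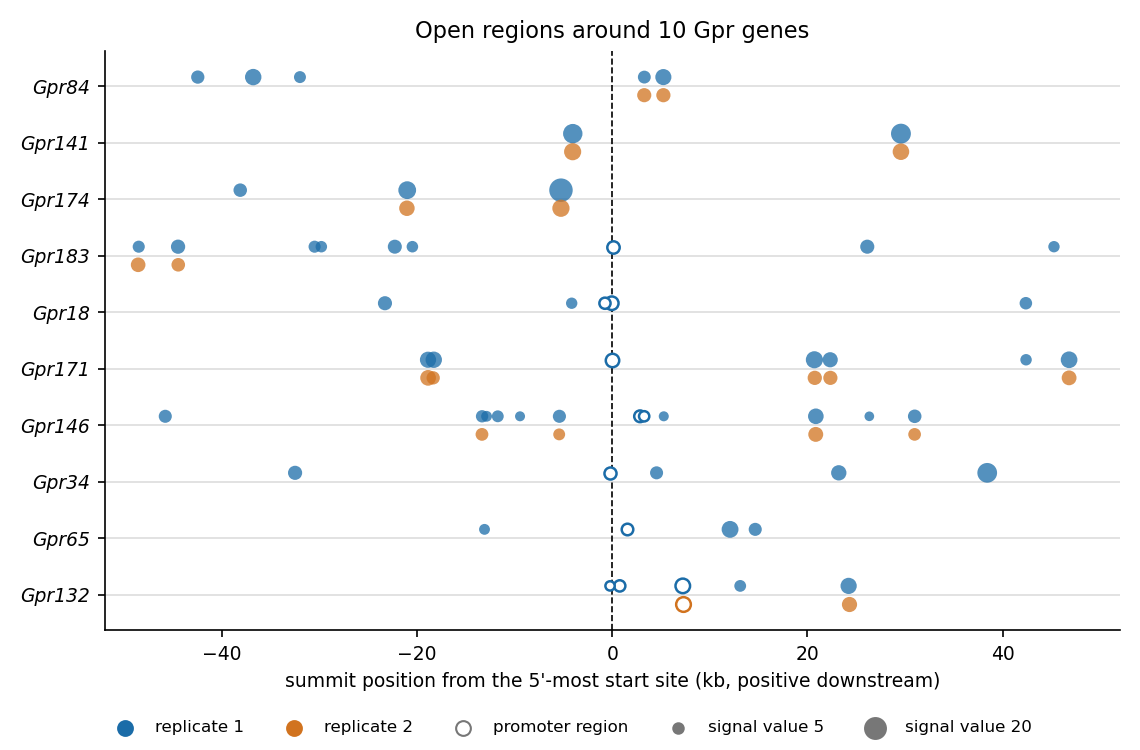
Summit position of open regions from the most upstream start site (x axis, kb, positive downstream) for 10 Gpr genes of leukocytes, in replicate 1 (upper, blue) and replicate 2 (lower, orange); filled circles are distal regions, open circles promoter regions, and area grows with the authors' signal value. Gpr84, Gpr141 and Gpr174 show distal regions in both replicates and no promoter region. The strongest promoter region of Gpr132 lies 7.23 kb inside the gene, and its weaker ones in replicate 1 lie near the most upstream start.

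Related genes were read by the same rule. Of 18 receptors that carried Gpr numbers before a ligand or family was known, 3 were open in both replicates (16.7%), a share near that of the Gpr genes: Sucnr1, the succinate receptor (16 and 12 in the replicates), Hcar2, the receptor of niacin and hydroxybutyrate (11.7 and 10.7), and Adgrg1, an adhesion receptor (9.75 and 10.8). Of 28 genes for G protein subunits, receptor kinases and arrestins, which serve many receptors at once, 16 were open in both (57.1%), and 23 of the 28 were CpG-rich, so that the nearer background is the 66.8% of all CpG-rich genes. Their strongest promoters were those of Gna12 (17.4 and 17.7), Gnai3 (16.5 and 18.2) and Grk4 (15.9 and 17.8).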

How the data were processed

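The deposited files are narrowPeak lists on mm10 (GRCm38), per the file headers. Each holds a signal value, a score that the authors did not define there, and a −log10 p per peak as deposited, which was used only to carry peaks through merging. Lists of 1 replicate, the conservative list between replicates and the list from pooled reads had passed IDR at the authors' hands, per the file headers. The ranked list gives a −log10 IDR as a score in the deposited file, and all 33147 peaks of the conservative list were at 0.05 or below. The aligner, the peak caller and their versions were not given in the sources used here. Read depth is unknown, so the number of regions is the only sign of it.

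Overlapping peaks were merged into regions with the highest signal value and its summit, on 21 assembled chromosomes. Start sites are those of GENCODE M21, with 1 gene kept per symbol, and an overlap of 1 bp counted. The gene counts on simulated peaks matched a brute-force search. Intervals are 95% Wilson intervals, cover the number of genes only, and treat genes as independent, although neighbouring genes share regions. There is no test, since 2 libraries of 1 group hold no comparison. Members, role lists, marker lists and motifs were chosen with earlier results of these data known. Named genes, apart from a few that are not reported here by name or in the figures that label genes, are all those with a promoter region in either replicate or the conservative list, those with 3 or more distal regions in replicate 1, closed genes by role, and the 3 strongest of each related list. Motifs were searched in 300 bp around conservative-list summits on both strands. Of 14 motifs searched, those printed are ETS, PU.1-like, CEBP, RUNX, SP and KLF, and NFY, with NRF1 and NF-kB given for distal regions alone. Of the genes listed, the T cell marker Trac was not matched. Python 3.11.15, numpy 2.4.6, pandas 2.3.3, scipy 1.17.1 and matplotlib 3.10.9 were used. Alternatives were other lists, stronger regions, other windows, start sites and overlaps, and leaving out each replicate.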

Additional observations from a re-analysis of the deposited data

How the results depend on the processing

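The number of Gpr genes with an open promoter in both replicates (13) was 22 with the less strict pseudoreplicate lists, 22 with the conservative list, 23 with the pooled list and 7 with regions at or above the median signal value; all 13 remained open in the first 3, and Gpr19, Gpr35, Gpr108, Gpr132, Gpr137 and Gpr137b were lost in the last. Windows of 2.5 kb and overlaps of 100 bp gave 13, and the most upstream start alone gave 11, without Gpr35 and Gpr132. In these settings all genes gave 49.8, 46.7, 49.7, 26.5, 41.5, 39.6 and 36.5%, above the Gpr share each time. Leaving out a replicate gave 13 to 23, with 23 without replicate 2. The number with a distal region in both replicates (25) was 40, 41, 45 and 9 in the same 4 settings, 36 within 100 kb, and 25 to 43 with a replicate left out (43 without replicate 2). The first 5 are 54.8, 56.2, 61.6, 12.3 and 49.3% of Gpr genes, against 50.7, 47.6, 55.8, 10.4 and 42% of all genes. The mean number of distal regions (1.11) was 2.51 with the less strict lists, 2.12 with the pooled list, 2.25 within 100 kb, 1.41 with the conservative list, 0.356 with stronger regions, and 0.534 to 1.68 with a replicate left out, and was above that of all genes in each. Replicate 2 has fewer regions (14548 against 27709); the cause was not tested. No paired analysis was possible because there is 1 group.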
